A study of Eriocheir sinensis with 2 samples.

Results

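The 47 unigenes described here are annotated as carriers of sugars, amino acids, monocarboxylates, nucleosides, organic ions, peptides, phosphate and choline, as mitochondrial carriers or as water channels, in the Y-organ of the Chinese mitten crab *Eriocheir sinensis*. They were chosen among 47966 unigenes with reads, of which 13314 have an annotation, by words in the name of the protein that each unigene matched best in the nr database. A unigene was taken if this name holds solute carrier, sugar, glucose, amino acid, monocarboxylate, nucleoside, peptide or phosphate transporter, organic cation, organic anion or aquaporin, and none of zinc, copper, exchanger, bicarbonate, ADP/ATP or carnitine. These words use no measured value, but they were chosen with earlier results of these data known. No member has a unicellular organism as its best hit, and the 26 species of the best hits are animals, led by the tick *Ixodes scapularis* with 6 members. The 47 unigenes have 42 distinct best hits.

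The study asked which unigenes of the Y-organ differ in expression after eyestalk ablation. Group C1 had the eyestalk removed, and its Y-organs were taken 48 h later. Group C0 kept the eyestalk and received no treatment, and its Y-organs were taken at the same time. Each group held 30 healthy crabs of 5 to 6 g from fresh water, no sham operation is named, and C1 therefore includes the wound of the operation. The Y-organs of a group gave 1 RNA-seq library, so every difference below is a difference between 2 libraries with no replicate check.

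Solute carriers are membrane proteins that move small molecules down their gradients or couple them to the gradients of sodium, protons or other solutes. The Y-organ makes ecdysteroids, the molting hormones of arthropods, from cholesterol of the diet, and it takes sugars, amino acids and other substances from the hemolymph across its plasma membrane. Peptide hormones from the eyestalk restrain this gland, and removal of the eyestalk is the classical way to release it.

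Both libraries together held 7903316 uniquely mapped unigene reads, 47.5% of them in C1 and 52.5% in C0, so that 1 read stood for 0.267 per 1e+06 library reads in C1 and 0.241 in C0. Levels are given as reads and as RPKM (reads per kilobase of unigene and 1e+06 library reads, as deposited), and only RPKM was used to compare unigenes with each other. Ratios are the log2 of the reads per library total in C1 over C0, with 0.5 read added to each library. Their 95% intervals describe counting error alone, since reads copied by PCR from 1 molecule are not independent. A unigene was called with an adjusted p of at most 0.001 (exact two-sided binomial test, Benjamini-Hochberg over all unigenes) and a log2 ratio beyond 1, and this test compares the 2 libraries and not the conditions. All 6 unigenes named for ecdysone synthesis or the ecdysteroid receptor had reads in both libraries. Of these 6, 1 was called higher and 0 lower: Unigene1867_A0A (dib, a putative ecdysteroid 22-hydroxylase) had 654 reads in C1 and 323 in C0, a log2 ratio of 1.16. Unigene19254_A0A (ecdysone biosynthesis protein) alone had 259118 reads in C1 and 277318 in C0. Per library total its log2 ratio was 0.049, and it was not called, while the paper lists it as up-regulated. A second dib unigene, Unigene1609_A0A, had 5 reads in C1 and 2 in C0. Unigene43419_A0A, Unigene5065_A0A and Unigene18075_A0A are named for the receptor. The paper cites high expression of the receptor in muscle as well, so these do not mark the gland alone. The words also miss unigenes that the paper places in the ecdysone pathway. Among those missed, the paper reports the one for the first step from cholesterol as down-regulated. It reports the one for the last step to ecdysone as up-regulated. Lists of markers of other cells also had reads. A muscle list of 36 unigenes summed to 14242 reads in C1 and 16145 in C0 (1 called higher, 6 lower). A hemocyte list of 21 summed to 16618 in C1 and 14177 in C0 (0 higher, 2 lower). Called lower were 16.7% of the muscle list and 9.52% of the hemocyte list, beside 2.98% of all annotated unigenes. The ratio of the sums was 0.977 for muscle and 1.30 for hemocytes. With at least 10 reads, the median log2 ratio was -0.58 for muscle (9 above and 19 below 0) and -0.32 for hemocytes (8 above and 10 below). Hepatopancreas markers (46) had 2490 reads in C1 and 2840 in C0 with 0 calls, and cuticle markers (24) had 4235 in C1 and 2375 in C0 with 1 called higher and 0 lower. Of the cuticle reads, 3888 in C1 and 1939 in C0 fell on Unigene20409_A0A, and the 11 cuticle unigenes with at least 10 reads had a median log2 ratio of -0.054 (5 above and 6 below 0). The 185 unigenes with a ciliate best hit summed to 10308 reads in C1 and 32497 in C0 (0 called higher, 99 lower), and leaving them out of the library sizes moved the log2 ratios by -0.0074 and called 0 members. The part of the other lists in the results below was not tested.

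None of the 47 members was called. By the exact binomial test 0 members were higher in C1, where 2.32% of all unigenes and 2.16% of the annotated unigenes were called higher. Likewise 0 members were lower in C1, where 1.7% of all unigenes and 2.98% of the annotated unigenes were called lower. Fisher's exact test and the exact test of edgeR with 3 assumed levels of biological variation also called 0 members in either direction. These tests used the same log2 ratios, and an assumed variation makes the test stricter, so they are no independent check. At an unadjusted p under 0.05, 1 member was higher and 7 were lower in C1, beside 12.6% of all unigenes higher and 7.48% lower. In both directions together this was 17.02% of the members and 20.1% of all unigenes. The depths differ, with a median of 6 reads in both libraries together for members and 16 for all unigenes. With at least 50 reads, the share was 57.1% of the members (4 of 7, all lower in C1). It was 53.1% of the annotated unigenes, in both directions together. Of these annotated unigenes, 6.63% were called higher and 9.08% lower. The scale of the libraries matters for the direction: the TMM factors of edgeR shifted every log2 ratio by -0.17 and the median ratio of DESeq2 by -0.15. Over all unigenes the calls were 1115 higher and 816 lower with the summed reads, 730 higher and 1053 lower with TMM, 757 higher and 989 lower with the median ratio, and 932 higher and 906 lower with the clean reads.

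The shallow counting of most members limits this comparison. Reads in both libraries were found for 37 members, in C1 alone for 2 and in C0 alone for 8. Only 20 members had at least 10 reads in both libraries together, 7 had at least 50 and 5 had at least 100. A unigene needed at least 14 reads to be callable at all, which 18 members had. To be called with a 4-fold difference it needed 43 reads if higher and 46 if lower in C1, which 7 members had. The missing calls therefore do not show that the members were at like levels. In C1 the median member had an RPKM of 1.116, against 5.796 for the median annotated unigene. In C0 the median member had 2.97 RPKM, against 6.63 for the median annotated unigene. The median member was 425 bp long (range 202 to 2340 bp), so many are fragments of a transcript.

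**Figure D1:**
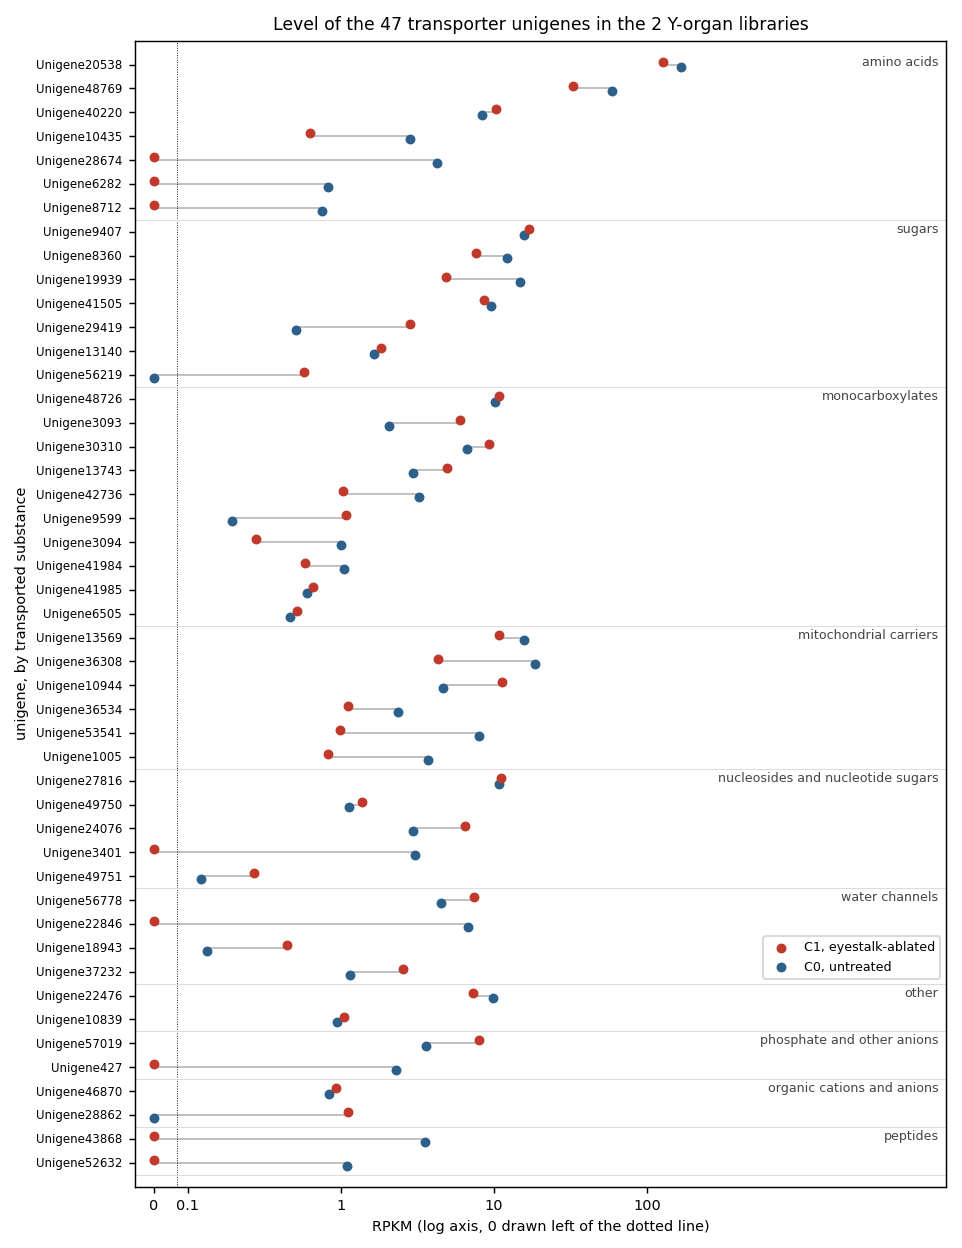
RPKM of each of the 47 members in C1 (red) and C0 (blue) on a log axis, with values of 0 left of the dotted line, grouped by the transported substance and ordered by reads within a class. Unigene20538 and Unigene48769, both amino acid transporters, lie above all other members in both libraries, and 8 members are at 0 in C1 and 2 at 0 in C0.

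Amino acid transporters held most of the reads of the whole set. The 7 members summed to 1297 reads in C1 and 1994 in C0, which is 346 per 1e+06 library reads in C1 and 480 in C0, a ratio of 0.720 (95% interval 0.671 to 0.772). They made up 76.0% of all member reads in C1 and 80.2% in C0. This sum rests on 2 unigenes, since the other 5 had 28 reads in C1 and 35 in C0 and a ratio of 0.886 (0.542 to 1.45). In whole-organ RNA, fewer cells that carry a transporter and less of its RNA per cell cannot be told apart.

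Unigene20538_A0A (2225 bp) is annotated only as an amino acid transporter, from a tick sequence, and was the most abundant member in both libraries. It had 1053 reads and 126 RPKM in C1, against 1528 reads and 165 RPKM in C0. This placed it at percentile 97.3 of the annotated unigenes in C1 and 97.8 in C0. Its log2 ratio was -0.39 (-0.50 to -0.28), with an adjusted p of 4.6e-10 (exact binomial test, Benjamini-Hochberg). The p passed the threshold and the size of the difference did not.

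Unigene48769_A0A (1770 bp) is annotated as Y+L amino acid transporter 2, which in mammals exchanges cationic amino acids such as arginine and lysine for neutral amino acids with sodium. It had 216 reads and 32.5 RPKM in C1, against 431 reads and 58.6 RPKM in C0. The log2 ratio was -0.85 (-1.09 to -0.61), with an adjusted p of 2.49e-11 (exact binomial test, Benjamini-Hochberg). The p passed the threshold and the log2 ratio did not go beyond -1, although its interval reaches past -1. With TMM factors the log2 ratio of Unigene48769_A0A was -1.02 and it was called lower. At an adjusted p of at most 0.001 and any fold, these 2 amino acid transporters were the only members, both lower in C1, where 2.45% of all unigenes were lower and 3.46% higher by the same rule. A second unigene with this annotation, Unigene28674_A0A, had 0 reads in C1 and 4 in C0.

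Unigene40220_A0A (696 bp) is named for a sodium-dependent carrier of neutral amino acids, B(0). It had 27 reads and 10.3 RPKM in C1, against 24 reads and 8.30 RPKM in C0. Its log2 ratio of 0.31 had an interval from -0.47 to 1.10, which holds differences in both directions. The remaining amino acid members, chosen here after their values were seen, were Unigene10435_A0A (sodium-coupled neutral amino acid transporter 10) with 1 read in C1 and 5 in C0, and Unigene6282_A0A (cationic amino acid transporter 4) and Unigene8712_A0A (sodium-dependent proline transporter) with 0 reads in C1 and 1 in C0 each.

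**Figure D2:**
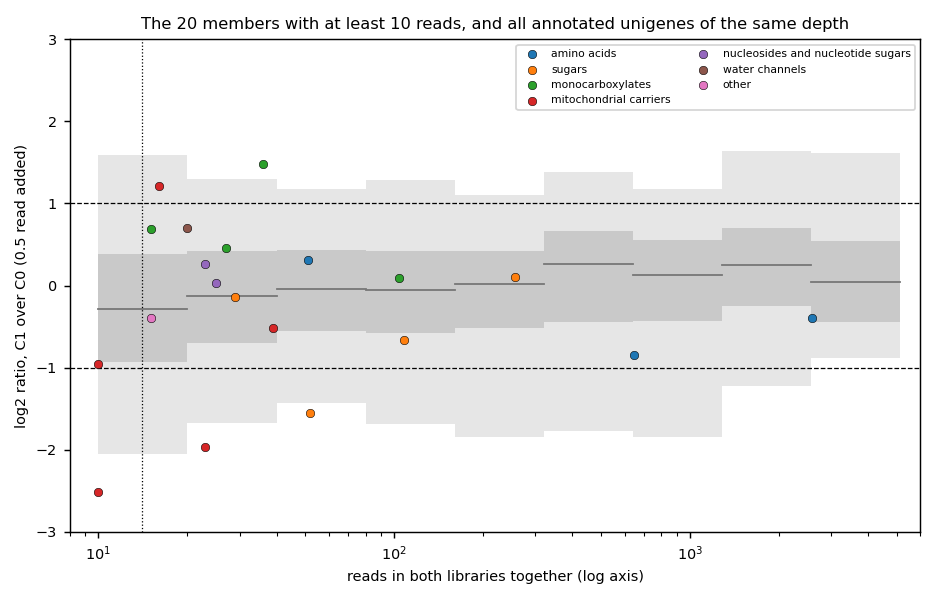
Log2 ratio of C1 over C0 against the reads in both libraries together (log axis) for the 20 members with at least 10 reads, colored by class, over the range of all annotated unigenes of like depth (light grey 5th to 95th percentile, dark grey the middle quartiles, line the median). Dashed lines mark log2 ratios of -1 and 1 and the dotted line the 14 reads needed for any call. No member with more than 52 reads lies beyond the dashed lines, and points within 0.17 above 0 would lie below 0 with TMM factors.

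The 7 sugar transporters summed to 198 reads in C1 and 258 in C0, a ratio of 0.850 (0.706 to 1.02). Without the most abundant one, 72 reads in C1 and 128 in C0 remained, a ratio of 0.623 (0.467 to 0.830). The abundant unigene was thus at a near equal level in the libraries while the sum of the other 6 was lower in C1. Most reads of that sum fell on Unigene8360_A0A (39 in C1 and 69 in C0) and Unigene19939_A0A (12 in C1 and 40 in C0). The rest, with few reads, leaned in both directions.

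Unigene9407_A0A (2000 bp) is that abundant member, with a best hit to a sugar transporter of the gastric caeca of the migratory locust. It had 126 reads and 16.8 RPKM in C1, against 130 reads and 15.7 RPKM in C0. The log2 ratio was 0.10 (-0.25 to 0.45), and it was below 0 with TMM factors (-0.067) and the median ratio (-0.045). Its interval excludes a 2-fold difference between the libraries in either direction by counting error alone.

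Unigene8360_A0A (1363 bp) is annotated as the facilitated glucose transporter member 1 of solute carrier family 2, which in mammals carries glucose into many cell types without an energy source. It had 39 reads and 7.63 RPKM in C1, against 69 reads and 12.2 RPKM in C0. The log2 ratio was -0.67 (-1.24 to -0.11) and the adjusted p was 0.131 (exact binomial test, Benjamini-Hochberg), so it did not pass.

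Unigene19939_A0A (656 bp), a putative sugar transporter, had the lowest log2 ratio among the 7 members with at least 50 reads. It had 12 reads and 4.88 RPKM in C1, against 40 reads and 14.7 RPKM in C0. The log2 ratio of -1.55 (-2.51 to -0.67) was beyond 1, but the adjusted p of 0.00554 (exact binomial test, Benjamini-Hochberg) missed the threshold. Its reads were also unevenly placed: in C0 they covered 61.1% of the length, where even placement would cover 95.5%, and in C1 they covered 42.4%, where even placement would cover 60.6%. Unigene41505_A0A (405 bp), with the same kind of annotation and another best hit, had 13 reads and 8.56 RPKM in C1, against 16 reads and 9.51 RPKM in C0. Its log2 ratio of -0.14 had an interval from -1.19 to 0.88. The last 3 sugar members, named after their values were seen, had few reads: Unigene29419_A0A had 5 in C1 and 1 in C0, Unigene13140_A0A had 2 in C1 and 2 in C0, and Unigene56219_A0A had 1 in C1 and 0 in C0.

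Monocarboxylate transporters were the largest class, with 10 members. In animals such carriers move lactate, pyruvate and related acids, often together with protons, and several members of the family have no known substrate. They summed to 112 reads in C1 and 97 in C0, a ratio of 1.28 (0.975 to 1.68). Without the most abundant one, 61 reads in C1 and 44 in C0 remained, a ratio of 1.53 (1.04 to 2.26). Of these reads, 26 in C1 and 10 in C0 fell on Unigene3093_A0A. All 4 members with at least 10 reads had a log2 ratio above 0, the lowest of them below 0 with TMM factors, and none was called.

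Unigene48726_A0A (1255 bp), with a best hit to monocarboxylate transporter 13-like of a wasp, had 51 reads and 10.8 RPKM in C1, against 53 reads and 10.2 RPKM in C0. Its log2 ratio was 0.092 (-0.46 to 0.64), below 0 with TMM factors (-0.077) and the median ratio (-0.055). Unigene3093_A0A (1164 bp), with the same best hit, had 26 reads and 5.96 RPKM in C1, against 10 reads and 2.07 RPKM in C0. Its log2 ratio of 1.48 (0.50 to 2.56) was the highest of the members with at least 10 reads, and the adjusted p was 0.0368 (exact binomial test, Benjamini-Hochberg). It was named after its value was seen.

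The reads of Unigene3093_A0A were unevenly placed. In C1 they held 1274 bases on 318 bp, or 27.3% of the length, where even placement would cover 67.3%. In C0 the 490 bases covered 25.5% of the length, where even placement would cover 34.95%. The gap of -39.99 percentage points in C1 lay beyond the 5th percentile of the annotated unigenes with at least 10 reads there (-30.6). In both libraries, then, the reads came from a like share of this unigene, and the higher count in C1 was not a wider cover. Unigene3094_A0A, also with this best hit, had 1 read in C1 and 4 in C0. Reads of near-identical unigenes can be split or lost by unique mapping. These 3 share a best hit, and whether they are alike in sequence was not tested. Their sum was 78 reads in C1 and 67 in C0, a log2 ratio of 0.36 (-0.10 to 0.84).

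**Figure D3:**
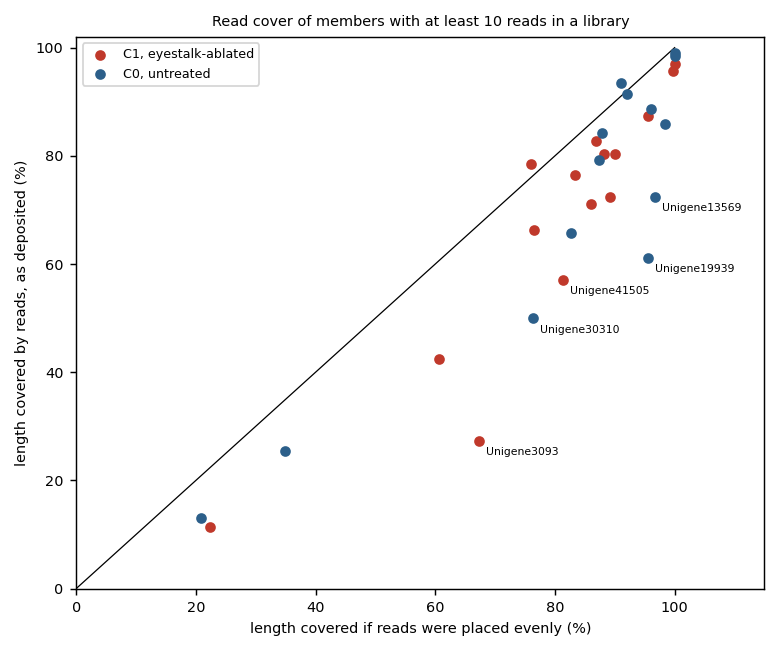
Share of the unigene length covered by reads, as deposited, against the share that evenly placed 49 bp reads would cover, for members with at least 10 reads in the library (15 in C1, red, and 14 in C0, blue). The line marks equality, and Unigene3093 in C1 lies farthest below it, followed by Unigene19939 in C0.

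Unigene30310_A0A (434 bp), a putative monocarboxylate transporter, had 15 reads and 9.21 RPKM in C1, against 12 reads and 6.66 RPKM in C0. The log2 ratio was 0.46 (-0.60 to 1.54). Its best hit is shared with Unigene42736_A0A, which had 2 reads in C1 and 7 in C0, and the pair summed to 17 reads in C1 and 19 in C0. The single unigenes leaned in opposite directions while their sum gave a log2 ratio of -0.0094 (-0.94 to 0.91). Among the members named after their values were seen, Unigene13743_A0A (SLC16A14) had 9 reads in C1 and 6 in C0, and Unigene9599_A0A (monocarboxylate transporter 12) had 5 in C1 and 1 in C0. The other 3 members of this class had 1 read in C1 and at most 2 in C0.

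**Figure D4:**
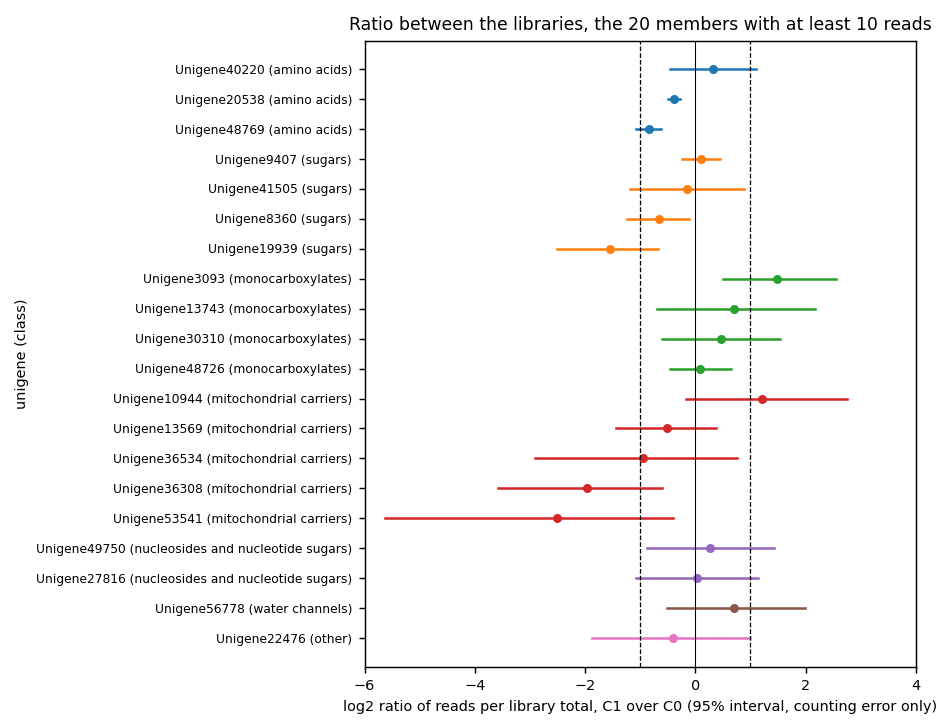
Log2 ratio of C1 over C0 with its 95% interval (counting error only) for the 20 members with at least 10 reads, by class, with dashed lines at -1 and 1. The intervals of 13 members hold 0, 6 lie below and 1 lies above it, and the points of Unigene9407, Unigene48726 and Unigene27816, just above 0, are below 0 with TMM factors.

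The 6 mitochondrial carriers, proteins of the inner mitochondrial membrane, summed to 35 reads in C1 and 69 in C0, a ratio of 0.562 (0.375 to 0.841). Of the 5 members with at least 10 reads, 4 had a log2 ratio below 0 and 1 above, and none was called.

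Unigene36308_A0A (249 bp) is annotated as SLC25A36-like, which in humans carries pyrimidine nucleotides. It had 4 reads and 4.28 RPKM in C1, against 19 reads and 18.4 RPKM in C0, where only 2 members had a higher RPKM. Its log2 ratio was -1.97 (-3.59 to -0.61), with an adjusted p of 0.0471 (exact binomial test, Benjamini-Hochberg). The difference was beyond the fold threshold, and the 23 reads were too few to pass.

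Both unigenes named for SLC25A38, which brings glycine into mitochondria for heme synthesis in yeast and vertebrates, had short sequences and leaned opposite ways. Unigene13569_A0A (370 bp) had 15 reads and 10.8 RPKM in C1, against 24 reads and 15.6 RPKM in C0, a log2 ratio of -0.51 (-1.45 to 0.38). Unigene10944_A0A (259 bp) had 11 reads and 11.3 RPKM in C1, against 5 reads and 4.65 RPKM in C0, a log2 ratio of 1.21 (-0.18 to 2.75). Both intervals hold 0, and their best hits differ. The other carriers of this class had few reads and were named after their values were seen. Unigene53541_A0A, a mitochondrial solute carrier with no family member given, had 1 read in C1 and 9 in C0 (interval of the log2 ratio -5.63 to -0.41). The uncoupling protein UCP-4 of vertebrate brain, SLC25A27, gave its name to Unigene36534_A0A, with 3 reads in C1 and 7 in C0, and Unigene1005_A0A, with 1 in C1 and 5 in C0.

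Carriers of nucleosides and nucleotide sugars had 32 reads in C1 and 31 in C0 over 5 members, a ratio of 1.14 (0.701 to 1.86). Unigene27816_A0A (289 bp), SLC35F5-like, had 12 reads and 11.1 RPKM in C1, against 13 reads and 10.8 RPKM in C0. Its log2 ratio of 0.036 (-1.07 to 1.14) turned to -0.13 with TMM factors, -0.11 with the median ratio and -0.036 with the clean reads. An equilibrative nucleoside transporter, a passive carrier of nucleosides, was present as Unigene49750_A0A and Unigene49751_A0A, which share a best hit and summed to 14 reads in C1 and 12 in C0. At 2340 bp Unigene49750_A0A was the longest member, yet reads covered only 11.41% of it in C1 and 13.03% in C0. It was named after its value was seen, like Unigene24076_A0A (SLC35B1), with 6 reads in C1 and 3 in C0, and Unigene3401_A0A (SLC35B4), with 0 in C1 and 3 in C0.

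Water channels had 17 reads in C1 and 16 in C0 over 4 members. Aquaporins are pores that let water, and in some members glycerol or ammonia, pass the membrane. Unigene56778_A0A (431 bp), with a best hit to an aquaporin of *Drosophila melanogaster*, had 12 reads and 7.42 RPKM in C1, against 8 reads and 4.47 RPKM in C0, a log2 ratio of 0.70 (-0.52 to 1.98). Unigene22846_A0A, similar to aquaporin 9a and named after its value was seen, had 0 reads in C1 and 6 in C0. With 0 reads, a level of up to 0.800 per 1e+06 library reads is allowed in C1 (3 counts), and the upper limit of its log2 ratio was -0.50. The adjusted p was 0.18 (exact binomial test, Benjamini-Hochberg). Unigene18943_A0A, similar to an earthworm aquaporin for water and ammonia, had 3 reads in C1 and 1 in C0 on 1793 bp, and Unigene37232_A0A (aquaporin-2) had 2 in C1 and 1 in C0.

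The remaining classes were at the limit of detection. For choline, a precursor of membrane phospholipids, Unigene22476_A0A (SLC44A1, 221 bp) had 6 reads and 7.24 RPKM in C1, against 9 reads and 9.81 RPKM in C0, a log2 ratio of -0.40 (-1.87 to 0.99). The sodium-dependent phosphate transporter Unigene57019_A0A had 6 reads in C1 and 3 in C0 (log2 ratio 1.04, interval -0.72 to 3.01), and Unigene427_A0A of the same annotation had 0 in C1 and 2 in C0. Organic anion transporters were represented by Unigene46870_A0A with 1 read in each library and Unigene28862_A0A (SLCO4A1) with 1 in C1 and 0 in C0. Both peptide carriers lacked reads in C1: Unigene43868_A0A (SLC15A4-like, a lysosomal carrier of histidine and peptides in mammals) had 0 in C1 and 3 in C0, and Unigene52632_A0A (similar to PepT1, the intestinal peptide transporter of mammals) had 0 in C1 and 2 in C0. The intervals of these single unigenes hold a log2 ratio of 0. That of the summed peptide carriers (0 reads in C1 and 5 in C0) had an upper limit of -0.23. This limit rests on 5 reads, fewer than the 14 that a call needs, and the sum was not tested. The exact Poisson limits of the summed levels in C1 and C0 overlapped, which is not a test. With only 5 reads, no difference of the peptide carriers is shown. Unigene10839_A0A, a putative solute carrier of no given family, had 1 read in each.

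**Figure D5:**
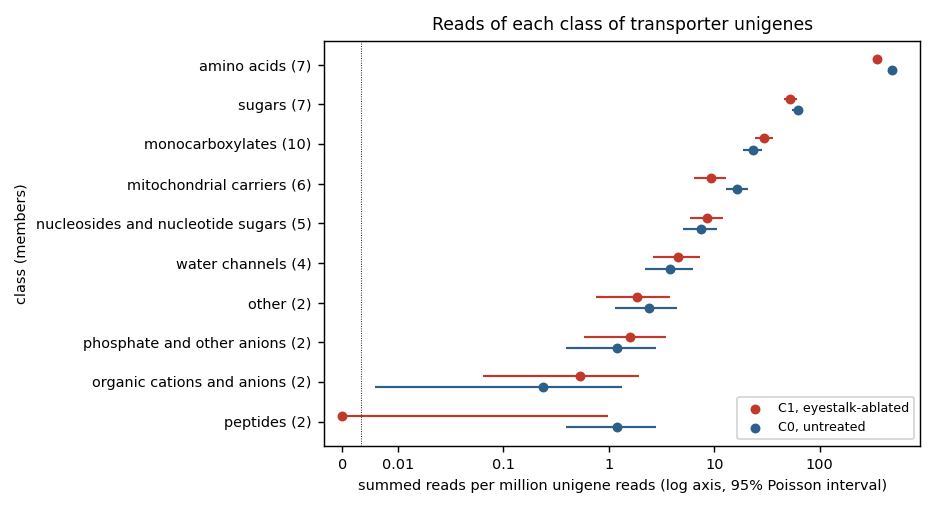
Summed reads of each class per 1e+06 unigene reads of the library (number of members in parentheses) in C1 (red) and C0 (blue) on a log axis with 95% Poisson intervals, which cover counting error only. Amino acid transporters stand at 346 in C1 and 480 in C0, and in each of the other 9 classes the intervals of C1 and C0 overlap. Such overlap is not a test. The interval of the ratio also lies below 1 for mitochondrial carriers (0.375 to 0.841) and, on 5 reads, for peptide carriers (upper limit 0.851). For the peptide carriers 5 reads are too few to show a difference. The 2 peptide carriers are at 0 in C1.

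Across the set, the 20 members with at least 10 reads had a median log2 ratio of -0.054, with 10 above and 10 below 0 and the middle quartiles from -0.71 to 0.35. The median over all unigenes with at least 10 reads was 0.15 (30436 unigenes), and over the annotated ones it was -0.074 (9035 unigenes). The 7 members with at least 50 reads had a median of -0.39, beside 0.0039 for the 4075 annotated unigenes of that depth. By counting error, 3 members (Unigene20538_A0A, Unigene9407_A0A and Unigene48726_A0A) had intervals wholly within 1 log2 unit of 0, and the other 17 of these 20 could be 2-fold different or more. Against annotated unigenes of like depth, Unigene19939_A0A, Unigene36308_A0A and Unigene53541_A0A lay below the 5th percentile and Unigene3093_A0A above the 95th.

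All members together had 1706 reads in C1 and 2486 in C0, which is 455 per 1e+06 library reads in C1 and 599 in C0, a ratio of 0.760 (0.714 to 0.808). Without the 2 most abundant amino acid transporters the sums were 437 reads in C1 and 527 in C0, and the ratio was 0.918 (0.808 to 1.04). The 5 members with the most reads held 87.0% of all member reads in C1 and 88.9% in C0. The lower sum in C1 thus lay mostly in Unigene20538_A0A and Unigene48769_A0A.

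Other transport genes, listed by annotation words, are given for comparison, and whether they differ from the members was not tested. Their calls stand beside 2.16% of annotated unigenes higher and 2.98% lower in C1, and the lists are short. Of 9 solute carriers that the wording left out, 1 was called higher and 0 lower. This was Unigene9572_A0A (zinc transporter 1, which exports zinc from cells in mammals), with 289 reads in C1 and 135 in C0 and a log2 ratio of 1.24. Of 37 ABC transporters, pumps driven by ATP, 2 were higher and 1 lower in C1. The 2 higher ones were named for multidrug resistance-associated proteins, Unigene10325_A0A with 80 reads in C1 and 21 in C0, and Unigene28635_A0A with 98 in C1 and 44 in C0. The lower one, Unigene46120_A0A of subfamily ABCB, had 100 reads in C1 and 231 in C0. Among 39 other transporters, 1 was higher and 0 lower: Unigene7739_A0A, an MFS-type transporter, had 2013 reads and 257.5 RPKM in C1, against 933 reads and 107.8 RPKM in C0. Its log2 ratio was 1.26. The sodium pump, whose gradient drives the sodium-coupled carriers, was searched by a few spellings of its name. These matched 2 unigenes with 6 reads in C1 and 1 in C0, and none was called. Their best hits are from *Apis mellifera* and *Loa loa*, and pump unigenes with other wording would not be counted. The level of the pump in the gland is therefore not given by these reads.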

How the data were processed

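Y-organ RNA of 1 library per group was sequenced by the authors on an Illumina instrument, and clean reads were mapped with SOAPaligner/soap2 (version not given in the sources used here) to the unigenes of an earlier transcriptome, allowing 1 or 2 mismatches. For each unigene the authors deposited a count of reads that mapped uniquely, its RPKM calculated from that count, and its coverage as the percent of unigene length under reads. The authors' table that compares the libraries also holds log2 ratios, directions, p-values and false discovery rates. It served here for its read counts, unigene lengths and nr and GO annotation, and none of those comparison values was used. Its counts were equal to those deposited for each library. All value columns matched a sample (0 without one). A later genome assembly's gene table lists 0 of these unigenes, so no coordinates or sequences are given.

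The members, classes and lists were chosen with earlier results of these data known. Classes follow the family number or substance in the annotation, and the mitochondrial solute carrier without a number was placed by its wording. The text names every called member, the 10 members with the highest RPKM in each library, the most counted member of each class, and, among members with at least 50 reads, the 3 highest and 3 lowest log2 ratios. In the other transport lists it names called unigenes, and in the marker lists the gland unigenes and a cuticle unigene. Other members were named after their values were seen.

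Counts were tested with an exact two-sided binomial test with the C1 fraction of the summed reads, 47.5%, as the null value, adjusted by Benjamini-Hochberg over 47966 unigenes. Intervals of ratios, of single unigenes and of sums, were converted from 95% Wilson limits on the share of reads in C1, those of summed levels in a library are exact Poisson limits, and 3 counts are the limit for a count of 0. Expected coverage assumed random placement of 49 bp reads, the length that all unigenes with 1 read show. Before use the script was tested on simulated counts with counting error alone. Changes of 4-fold were placed only in unigenes with at least 100 reads, a depth that 5 members had. For members with fewer reads this says little. Alternatives were other library sizes (TMM, DESeq2 median ratio, clean reads, without the 10 most abundant unigenes), Fisher's exact test, edgeR's exact test assuming a biological variation of 0.1, 0.2 or 0.4, filters, thresholds and added reads. After seeing the data, a library size without ciliate unigenes and the summing of shared best hits were added. Tools were Python 3.11.15, numpy 2.4.6, scipy 1.17.1, pandas 2.3.3, matplotlib 3.10.9, R 4.3.3, edgeR 4.0.16 and DESeq2 1.42.0.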

Additional observations from a re-analysis of the deposited data

How the results depend on the processing

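With 1 library per group no replicate can be left out. No paired analysis was possible because each group has 1 library. The number of members called higher was 0 in all 16 alternatives, of which 14 were planned. Some of these could not add a call. A log2 threshold of 2 is stricter, and no member had a unicellular best hit to leave out. The number called lower was 0 in 14 of them and 1 in the others: with TMM factors and with a log2 threshold of 0.5 in place of 1, the member was Unigene48769_A0A (-1.02 with TMM). With this lower threshold 3.30% of all unigenes were called higher and 2.21% lower. The median log2 ratio of the members, -0.054, was -0.39 with at least 50 reads, -0.22 with TMM, -0.20 with the median ratio, -0.13 with clean reads and 0.036 with at least 1 read, where its sign changed. In the other alternatives it lay between -0.070 and -0.047. Of the 16 named members with a log2 ratio, 3 changed sign. Unigene27816_A0A turned to -0.13 with TMM, -0.11 with the median ratio and -0.036 with clean reads. Unigene48726_A0A turned to -0.077 with TMM and -0.055 with the median ratio, and Unigene9407_A0A to -0.067 and -0.045. These shifts follow from the scaling, which adds a constant to every log2 ratio. Depth limits the rest, since 29 of the 47 members had fewer than the 14 reads that a call needs.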
